A study of Rattus norvegicus with 6 samples.

Results

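The aminoacyl-tRNA synthetases join each amino acid to its transfer RNA. Their mRNAs were followed in rat liver after a control diet (CD) or a Western diet (WD). The 36 members were chosen by name and not by level, as 20 cytosolic and 16 mitochondrial enzymes or subunits, out of 32158 loci that carried a gene symbol. Each was read from the locus with its symbol, and Ears2, whose symbol stood at 2 loci, was read from the one with the higher mean level.

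Obesity-prone Sprague Dawley (op-SD) male rats were fed either the CD or the WD, a diet rich in milk fat, sucrose and cholesterol, for 2 wk, then fasted overnight and refed. The livers carried no transgene or drug treatment. For each diet, total liver RNA and RNA of a light and a heavy fraction of a sucrose density gradient were sequenced, where the light fraction held mRNAs with at most 3 ribosomes and the heavy fraction mRNAs with at least 4. Each of the 6 groups was 1 library of RNA pooled from 3 rats, so no spread between animals was measured, no p-value could be given, and every difference below is a difference between pools.

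Synthetases read the genetic code at the level of the transfer RNA, and each recognises 1 amino acid and the set of transfer RNAs that match it. The cytosol and the mitochondrion are served by separate gene sets, whose mitochondrial members carry the suffix 2, except that Gars and Kars each encode both a cytosolic and a mitochondrial form. In the cytosol, Dars, Eprs, Iars, Kars, Lars, Mars, Qars and Rars build the multisynthetase complex with the scaffold proteins Aimp1, Aimp2 and Eef1e1. Genes of many cytosolic synthetases are known targets of ATF4, the transcription factor that is made when amino acids run short, while the mitochondrial enzymes charge the transfer RNAs for the few proteins encoded by mitochondrial DNA.

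Levels were given as FPKM, the fragments scaled for transcript length and for library size, with a lower and an upper bound for each value. The locus of a gene was the Rnor_6.0 interval of all transcripts that overlapped there. Loci with a symbol summed to between 616030 and 866676 FPKM, highest in the WD light library. Reads were not counted in the files, but for most genes the FPKM values were whole multiples of what 1 fragment was worth, and fragment numbers could be inferred for 23 members, of which 13 were cytosolic and 10 mitochondrial. In these 23, the libraries held between 302 fragments (CD light) and 707 (WD light), and depth relative to CD total RNA ran from 0.636 in CD heavy to 1.49 in WD light. Hepatocyte markers summed to between 42592 and 129086 FPKM, the highest sum of the marker lists in each library, and bile duct (3 of 4 markers found, Krt7 at 0 in every library) and leukocyte markers (3 of 3 found, Cd79a at 0 in every library) stayed at or below 4.35 FPKM.

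The promoters showed a difference between the gene sets that used no measured level. The core of the amino acid response element, the site of ATF4 dimers, was searched as TGATGNAA on both strands in the 250 bases before each annotated start, with RefSeq promoters of GRCr8. It was found in 4 of the 16 cytosolic members whose promoter was read (25%), in 0 of the 16 mitochondrial members and in 1139 of all 33469 promoters (3.40%). Dars, Gars and Rars had no entry. The windows of the 4 are shown because they carry this difference between the sets, each 5′ to 3′ along its gene with the matched letters in capitals:
Iars: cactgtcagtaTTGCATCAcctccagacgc
Mars: gcccgttccggTTGCATCAgcgtgggct
Nars: cctaggtgatcTGATGCAAcgcttc
Tars: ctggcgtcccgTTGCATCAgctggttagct

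These windows lay at chr17:15193658-15193687, chr7:65023754-65023781, chr18:60275783-60275807 and chr2:62114811-62114840 (all on the minus strand). In Nars the match stood on the strand of the gene, and in the other 3 on the opposite strand. All 4 matches were of the same 8 letters, TGATGCAA or its reverse complement, and the matched letters began between 14 and 27 bases before the start. A match describes letters, and binding was not measured.

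Cytosolic synthetase mRNAs were more abundant than mitochondrial ones in every library. In CD total RNA the median level was 16.2 FPKM over the 20 cytosolic members and 3.71 FPKM over the 16 mitochondrial members, and in WD total RNA it was 16.5 and 3.22 FPKM. The cytosolic median stood at the 73.9th percentile of the loci compared in CD total RNA, and the mitochondrial median at the 34.7th. Here the loci compared are the 10201 that carried a symbol, whose level was estimated in every library and averaged 1 FPKM or more, and they include 35 of the 36 members. Mars2, the mitochondrial methionyl enzyme, was the exception, listed at 0 in all 6 libraries. On the scale of log2(FPKM + 0.1), the difference between the medians of cytosolic and mitochondrial members was 2.00 in CD total RNA (4.01-fold) and 2.27 in WD total RNA (4.81-fold). It was widest in CD heavy at 2.89 and narrowest in WD heavy at 1.88.

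Aars, the alanyl enzyme, and Tars, the threonyl enzyme, led the order, with means over the total RNA libraries of 101 and 98.7 FPKM. Eprs, which carries the glutamyl and prolyl activities in a single protein, followed at 75.3 FPKM, then Nars (asparaginyl) at 50.8 and Sars (seryl) at 49.1 FPKM. Iars2, the mitochondrial isoleucyl enzyme, was the highest of its set at 23.7 FPKM, in the ninth place of all. In CD total RNA the bounds of each member overlapped those of its neighbour in all 35 steps of this order, so adjacent places were not told apart. For cytosolic members the bounds in total RNA lay between 73.9% and 460% away from the value (median 79.8%), and for mitochondrial members between 79.9% and 180% (median 123%).

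**Figure D1:**
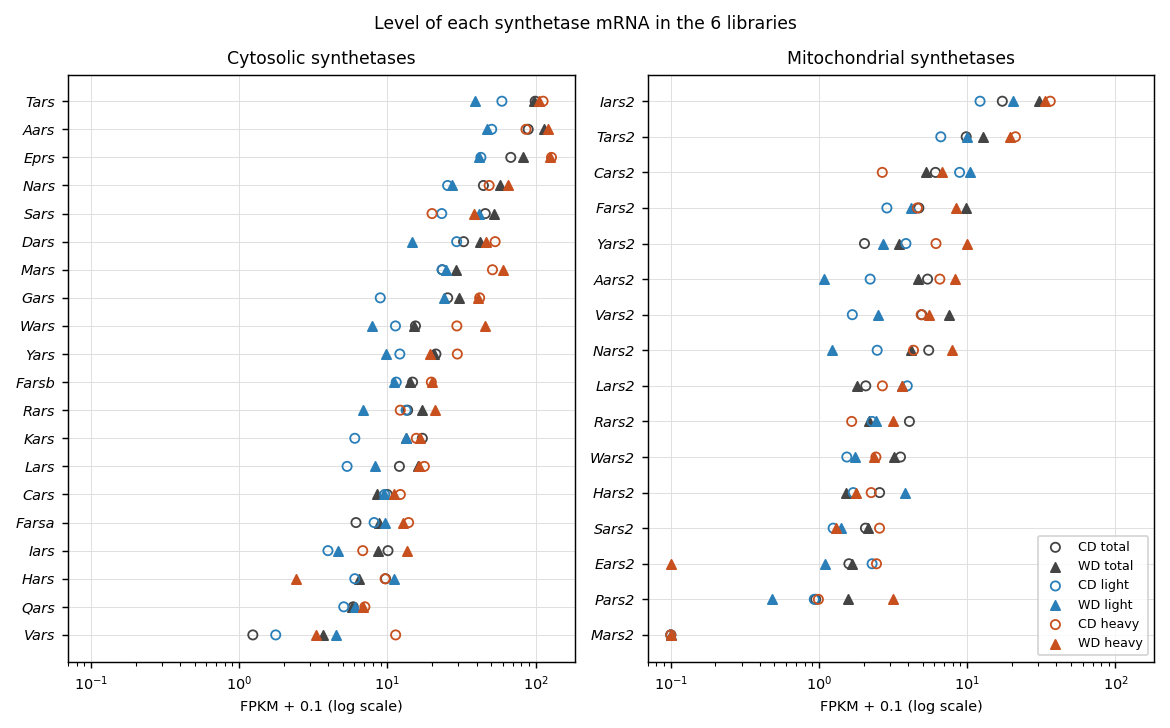
Level of each synthetase mRNA in the 6 libraries, as FPKM + 0.1 on a log axis, for the cytosolic (left) and mitochondrial (right) members in order of their mean. Open circles are CD, filled triangles WD, and the colour gives total RNA, light or heavy fraction; most cytosolic members lie above 10 FPKM, most mitochondrial members below it, and the heavy fraction (orange) lies to the right of the light fraction (blue) in most rows.

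Matching each cytosolic enzyme with the mitochondrial enzyme of the same amino acid gave 17 pairs. The cytosolic member was higher in all 6 libraries in 13 of them, by 16.8-fold for Aars over Aars2 and 23.3-fold for Sars over Sars2 in CD total RNA. The isoleucyl pair ran the other way. Iars measured 10.0 FPKM in CD total, 8.52 in WD total, 3.87 in CD light, 4.52 in WD light, 6.72 in CD heavy and 13.4 in WD heavy. Iars2 measured 17.1, 30.3, 12.1, 20.3, 36.2 and 33.5 FPKM in the same order, above Iars in all 6 libraries. Vars, the valyl enzyme, was above Vars2 in 3 libraries, and the cysteinyl pair and the pair of Farsa and Fars2 (phenylalanyl) in 5 each. The interval of Vars also held 21 other loci, of which 5 were above 0, so its reads could have been divided among neighbours.

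Total RNA was compared to ask how synthetase mRNA abundance differed between the WD and CD pools. The median change was 0.23 on the log2 scale over the cytosolic members, with 11 higher and 9 lower, and 0.060 over the mitochondrial members, with 8 higher and 7 lower, against 0.022 over all loci compared. Ratios of at least 1.5 and at most 0.75 served as limits. The study set these numbers for ribosome density of CD over WD, and here they were applied to every ratio, with WD over CD for the changes. Vars alone of the cytosolic members was above and Hars, the histidyl enzyme, alone was below. Of the mitochondrial members, 5 were above (Vars2, Pars2, Yars2, Iars2 and Fars2) and 2 below (Rars2 and Hars2). Of all loci compared, 17.7% were above the upper limit and 22.7% below the lower one.

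Fars2 gave 4.62 FPKM in CD total, 9.64 in WD total, 2.77 in CD light, 4.08 in WD light, 4.50 in CD heavy and 8.24 in WD heavy, higher in WD in each kind of RNA. Its abundance change was 1.05 on the log2 scale, and that of Iars2 was 0.82. Vars gave 1.14, 3.57, 1.67, 4.38, 11.3 and 3.18 FPKM in the same order of libraries, with a change of 1.57 in total RNA and a change of the opposite sign in the heavy fraction. The lower bound of Vars was 0 in all 6 libraries, and its upper bounds lay between 193% and 460% away from the value. No fragment numbers could be inferred for these 3 members.

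At the lower end, Rars2, the mitochondrial arginyl enzyme, gave 3.97 FPKM in CD total, 2.08 in WD total, 2.18 in CD light, 2.34 in WD light, 1.56 in CD heavy and 3.05 in WD heavy, from 2 to 8 fragments. Hars2, the mitochondrial histidyl enzyme, gave 2.46, 1.43, 1.60, 3.68, 2.15 and 1.68 FPKM, from 4 to 20 fragments. Their abundance changes were -0.90 and -0.74, and that of Hars was -0.59. Hars and Hars2 are neighbours, at chr18:29611546-29629087 and chr18:29629183-29638721, and both were lower in WD in total RNA and in the heavy fraction and higher in the light fraction.

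Where fragment numbers were known, a 95% counting interval was placed on each ratio. It covers the counting of fragments in these libraries and neither the rats nor the library preparation. In total RNA the interval included 1 for all 23 members with numbers, against 7.37% of loci with numbers whose interval lay wholly to 1 side of 1. The bounds given with the FPKM values overlapped between CD and WD for all 35 members, in total RNA and in both fractions. For every value above 0 the upper bound lay at least 73.9% away from it. Only a large difference could have separated such bounds, so their overlap does not show that levels were equal. At this depth a change of the size of the cytosolic median was not detectable in any of the 23.

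**Figure D2:**
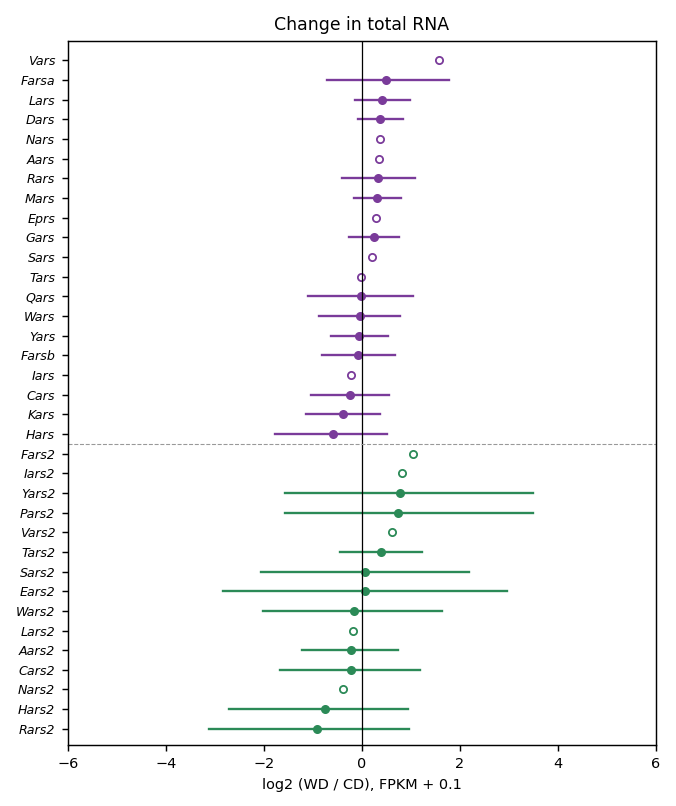
Change of each member in total RNA as log2 (WD / CD) of FPKM + 0.1, cytosolic members (purple) above the dashed line and mitochondrial members (green) below it. Filled points carry a 95% counting interval and open points have no fragment numbers; every interval crosses 0, and Vars is farthest to the right at 1.57.

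More members passed the ratio limits in the light fraction (17) than in total RNA (9), and the shares of all loci past them were also larger there. The median light change was 0.090 over cytosolic members (11 higher, 9 lower) and 0.19 over mitochondrial members (9 higher, 6 lower), against 0.017 over all loci. After rescaling the libraries to the same sum, these medians became -0.26 and -0.14, against -0.29 over all loci. A ratio of at least 1.5 was seen in 6 cytosolic and 2 mitochondrial members, with 25.9% of all loci there, and a ratio of at most 0.75 in 4 cytosolic and 5 mitochondrial members, with 26.8% of all loci. The counting interval lay to 1 side of 1 for 4 of 23 members, namely Gars and Kars upward and Dars and Rars downward, near the 17.7% of loci with numbers.

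Gars, the glycyl enzyme at chr4:85235171-85276044, gave 25.4 FPKM in CD total, 30.4 in WD total, 8.85 in CD light, 24.2 in WD light, 41.8 in CD heavy and 40.8 in WD heavy. The CD light library stood apart with 15 fragments, against 89 in WD light, while total RNA and the heavy fraction were close between diets. The light change was 1.44 on the log2 scale, a 2.71-fold rise with an interval from 1.57 to 5.08.

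Kars, the lysyl enzyme at chr19:44212205-44231157, gave 17.1, 13.2, 5.93, 13.3, 15.6 and 16.6 FPKM, so that it too was lowest in CD light. Its light change was 1.16, and the interval of the ratio ran from 1.08 to 5.24. After the libraries were rescaled to the same sum, this interval ran from 0.848 to 4.10 and included 1. Gars and Kars are the members that serve both compartments.

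Dars, the aspartyl enzyme of the complex at chr13:45074041-45127840, gave 32.6 FPKM in CD total, 42.2 in WD total, 29.2 in CD light, 14.6 in WD light, 53.2 in CD heavy and 46.0 in WD heavy. Its light change was -1.00, and the interval of the ratio ran from 0.328 to 0.763. Rars, the arginyl enzyme of the complex at chr10:20633631-20658100, gave 13.6, 17.1, 13.3, 6.71, 12.1 and 20.9 FPKM, and its light change was -0.97 with an interval from 0.263 to 0.977. Both were lowest of all in WD light and higher in WD total RNA than in CD total RNA.

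Among mitochondrial members other than Ears2, the lowest light ratios were those of Aars2, at -1.05, and Nars2, at -1.00. Aars2, the mitochondrial alanyl enzyme, gave 5.30, 4.53, 2.11, 0.972, 6.43 and 8.13 FPKM, of which the light values stood on 6 fragments each. Nars2, the asparaginyl enzyme, gave 5.39, 4.10, 2.37, 1.13, 4.24 and 7.74 FPKM. Both were lowest in WD light and highest in WD heavy. Ears2, the glutamyl enzyme, gave 1.49, 1.56, 2.18, 1.00, 2.34 and 0 FPKM, from at most 3 fragments in each library, too few for a fold, though it is counted below 0.75.

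The WD light library differed from the others in more than the synthetases. It was 1.49 times as deep as CD total RNA while CD light was 0.684 times as deep, and its red cell markers (Hbb, Hba1, Hba2 and Alas2, 4 of 4 found and none at 0 in all libraries) summed to 503 FPKM against 98.5 in CD light and between 17.1 and 53.8 in the other libraries. The markers did not move together. The globins were higher in WD light than in CD light (Hbb 242 against 13.9, Hba1 163 against 18.0, Hba2 91.0 against 46.8 FPKM). Alas2 was lower, at 7.18 against 19.7 FPKM. The part of depth or of blood in the light changes was not tested. In bulk liver, fewer cells of a type and less mRNA per cell cannot be told apart.

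The heavy fraction showed a median change of -0.028 over cytosolic members (9 higher, 11 lower) and 0.33 over mitochondrial members (9 higher, 6 lower), against -0.016 over all loci. Among members with a mean of at least 10 FPKM, the mitochondrial median was -0.12, from Iars2 and Tars2 alone. A ratio of at least 1.5 was met by 4 cytosolic and 6 mitochondrial members, with 21.7% of all loci there, and a ratio of at most 0.75 by 3 cytosolic and 2 mitochondrial members, with 25.8% of all loci. The mitochondrial members below include Ears2, listed at 0 in WD heavy, for which no fold is given. The interval lay to 1 side of 1 for 1 of 23 members, with 7.5% of loci with numbers there.

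That member was Hars, with 9.63 FPKM in CD total, 6.36 in WD total, 5.93 in CD light, 10.9 in WD light, 9.55 in CD heavy and 2.33 in WD heavy. Its WD heavy value stood on 3 fragments against 12 in CD heavy. The change was -1.99 on the log2 scale, the interval of the ratio running from 0.0442 to 0.904. Vars followed at -1.79.

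The largest heavy ratios of WD to CD were those of Pars2, Cars2 and Iars. Pars2, the mitochondrial prolyl enzyme, gave 0.850, 1.48, 0.829, 0.381, 0.890 and 3.04 FPKM, with 2 fragments in CD heavy and 7 in WD heavy. Its heavy change was 1.67, and the interval included 1. Cars2, the cysteinyl enzyme, gave 6.00, 5.13, 8.78, 10.3, 2.57 and 6.69 FPKM, with a heavy change of 1.35 whose interval included 1, and it was lower in the heavy than in the light fraction in both diets. Iars stood at 0.99 and had no fragment numbers.

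**Figure D3:**
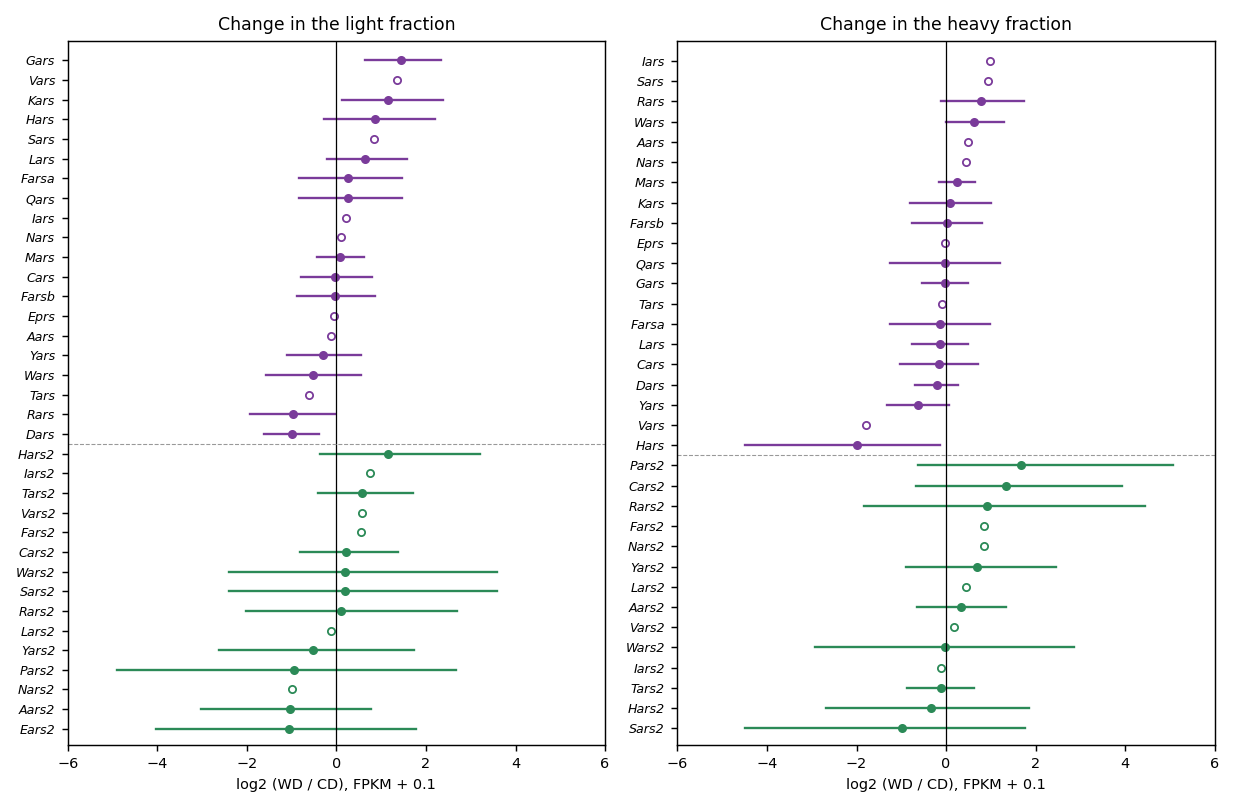
Change of each member in the light (left) and heavy (right) fraction as log2 (WD / CD) of FPKM + 0.1, drawn as in the plot for total RNA; Ears2 is left out of the right panel, where its WD value is 0. In the light fraction the intervals of Gars and Kars lie right of 0 and those of Dars and Rars left of it, and in the heavy fraction that of Hars lies left of 0.

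Ribosome density was read as heavy over light FPKM within a diet, and synthetase mRNAs leaned toward the heavy fraction in both diets. In CD, heavy exceeded light in 30 of 35 members, with a median of 0.89 on the log2 scale over cytosolic members (18 of 20 above 0) and 0.67 over mitochondrial members (12 of 15), against 0.012 over all loci, of which 50.2% were above. In WD, heavy exceeded light in 27 of 35 members, with medians of 0.97 (17 of 20) and 0.72 (10 of 15) against 0.0 over all loci, of which 48.5% were above. The lean was shared by 25 members in both diets (71.4%), 16 cytosolic and 9 mitochondrial, while 35.9% of all loci were above in both. Each library was scaled by itself, so the ratio places an mRNA relative to the other mRNAs of the 2 libraries and does not give the share of its molecules on heavy polysomes.

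At the same limits, 16 cytosolic and 9 mitochondrial members had a ratio of at least 1.5 in CD, where 32.9% of all loci did, and 0 cytosolic and 3 mitochondrial members had a ratio of at most 0.75, where 36.6% did. In WD the counts were 13 and 8 at the upper limit, with 31.4% of all loci, and 2 and 3 at the lower limit, with 38.5% of all loci. Ears2, at 0 in WD heavy, is counted among the 3 here and on the lower side of the density change below. The interval lay above 1 in CD for 9 of 23 members and below 1 for 0, with 29.2% of loci with numbers outside 1 in either direction. In WD it lay above 1 for 12 members and below 1 for 1 (Hars), with 36.6% of loci outside.

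The FPKM of 1 fragment falls with the length counted for a gene, and the lean was also described by this value. Loci with numbers were split into 4 bins of equal size by that value, and the 23 members fell 4, 11, 8 and 0 from the lowest to the highest. In the 3 bins that held members, heavy exceeded light in between 52.4% and 53.2% of loci in CD and between 47.1% and 51.9% in WD. In the same bins heavy exceeded light in 4, 10 and 6 members in CD and in 3, 10 and 5 members in WD. The 12 members above 0 without fragment numbers are in none of the bins, and coding length was not used. The part of length in the lean was not tested.

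Wars, the tryptophanyl enzyme at chr6:132771020-132802210, showed the largest WD density of the cytosolic members. It gave 15.4 FPKM in CD total, 14.9 in WD total, 11.2 in CD light, 7.75 in WD light, 29.3 in CD heavy and 45.5 in WD heavy. Heavy over light was 1.38 on the log2 scale in CD (interval of the ratio 1.36 to 5.26) and 2.54 in WD (3.48 to 10.2). The same order is kept for the members that follow, a log2 value with the interval of its ratio in parentheses.

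Mars, the methionyl enzyme, gave 23.4, 29.0, 23.3, 24.6, 51.1 and 60.3 FPKM, and its ratio was nearly the same in both diets, 1.13 in CD (1.53 to 3.18) and 1.29 in WD (1.87 to 3.21). Its interval on the genome also held Ddit3, a gene of the stress response. Lars, the leucyl enzyme, gave 12.0, 16.0, 5.25, 8.21, 17.7 and 16.1 FPKM, with 1.73 in CD (1.85 to 6.48) and 0.97 in WD (1.28 to 3.00). Yars, the tyrosyl enzyme, gave 21.2, 20.5, 12.0, 9.75, 29.5 and 19.2 FPKM, with 1.29 in CD (1.44 to 4.32) and 0.97 in WD (1.19 to 3.25).

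For these 4 members, and for Gars and Dars, the interval lay above 1 in both diets. Gars moved from 2.23 in CD (2.67 to 8.92) to 0.76 in WD (1.21 to 2.35), and Dars from 0.86 (1.25 to 2.68) to 1.65 (2.15 to 4.62). Kars was above 1 by its interval in CD alone (1.16 to 6.48), and Farsb (1.08 to 2.98) and Rars (1.73 to 5.66) in WD alone. Of the members without fragment numbers, Eprs had 1.58 in CD and 1.61 in WD.

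Among mitochondrial members, Aars2 and Tars2 were above 1 by their intervals in both diets. Aars2 had 1.56 in CD (1.14 to 9.43) and 2.94 in WD (3.29 to 25.2). Tars2, the threonyl enzyme, gave 9.74, 12.7, 6.53, 9.83, 21.0 and 19.3 FPKM, with 1.67 in CD (1.59 to 7.07) and 0.97 in WD (1.17 to 3.26). The threonyl and alanyl enzymes of the cytosol, Tars and Aars, stood at 0.92 and 0.77 in CD, and at 1.45 and 1.37 in WD.

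Pars2, at 2.71 (1.52 to 78.7), and Yars2, the tyrosyl enzyme, at 1.89 (1.25 to 12.7), were above 1 by their intervals in WD alone. Yars2 gave 1.93, 3.36, 3.76, 2.59, 6.05 and 9.85 FPKM. Nars2, without fragment numbers, had 0.81 in CD and 2.67 in WD.

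Few members leaned to the light fraction. Sars was the only cytosolic member below 0 in both diets, with 45.7, 52.4, 23.2, 41.6, 19.9 and 38.1 FPKM and densities of -0.22 and -0.13. Cars2, at -1.73 in CD and -0.61 in WD, and Lars2, the leucyl enzyme, at -0.56 and -0.01, were below in both. Lars2 gave 1.97, 1.71, 3.84, 3.54, 2.58 and 3.52 FPKM.

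**Figure D4:**
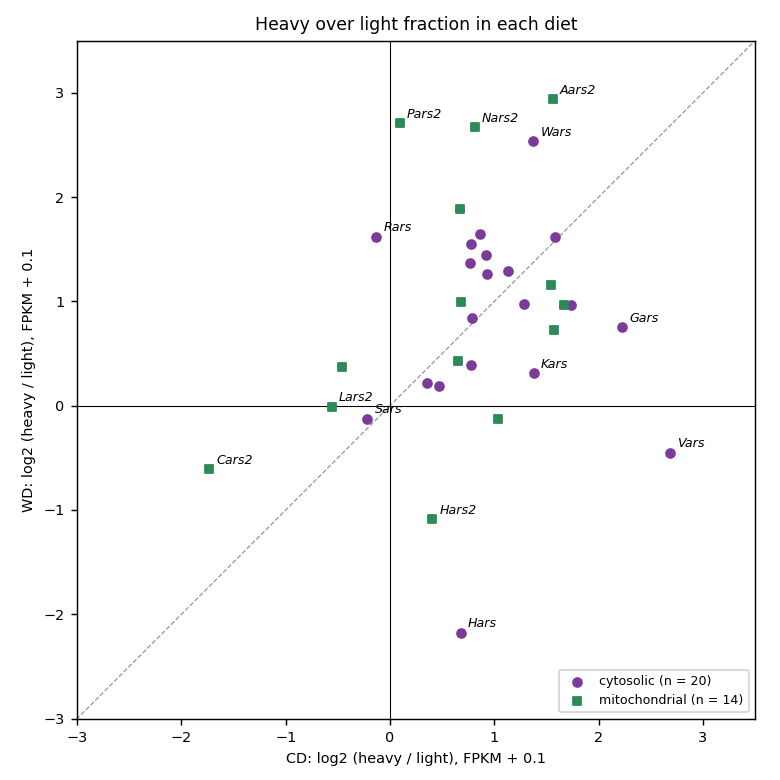
Heavy over light fraction of each member as log2 of FPKM + 0.1, CD on the horizontal and WD on the vertical axis, for 20 cytosolic (circles) and 14 mitochondrial (squares) members; Mars2, listed at 0, and Ears2, at 0 in WD heavy, are left out. Most points lie in the upper right quadrant, where heavy exceeds light in both diets, and Hars and Vars lie far below the dashed line of equal density.

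The 8 members of the multisynthetase complex had a median density of 1.00 in CD (7 of 8 above 0) and 1.42 in WD (8 of 8), and the other 12 cytosolic members 0.85 (11 of 12) and 0.80 (9 of 12). Their abundance changed by a median of 0.30, that of the other 12 by 0.090. Synthetases fall into classes I and II by the fold of their catalytic domain, and cytosolic class I members (Eprs among them, by its glutamyl part) had medians of 1.21 in CD and 1.13 in WD, class II members 0.82 and 0.80. The differences between these subsets were not tested.

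The change of ribosome density between diets compared all 4 fraction libraries. The median was 0.044 over cytosolic members (11 higher in WD, 9 lower) and 0.31 over mitochondrial members (8 and 7), against -0.021 over all loci. Among members with a mean of at least 10 FPKM, the mitochondrial median was -0.78, from Iars2 and Tars2 alone. A ratio of at least 1.5 was met by 5 cytosolic and 6 mitochondrial members, with 27.7% of all loci, and a ratio of at most 0.75 by 5 and 5, with 36.1%. The interval lay to 1 side of 1 for 3 of 23 members, with 10.0% of loci there.

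Rars rose in density, by 1.75 on the log2 scale (interval 1.34 to 8.68), from 13.3 FPKM light and 12.1 heavy in CD to 6.71 light and 20.9 heavy in WD. Gars fell by 1.47 (interval 0.175 to 0.706) and Hars fell by 2.86 (interval 0.0207 to 0.685). For Gars the heavy values were level and the light value rose. For Hars the heavy value fell, and the light value was 5.93 FPKM in CD and 10.9 in WD, with an interval of that ratio that included 1. Taken over total RNA, the heavy changes were 0.45 for Rars (0.597 to 3.19), -0.29 for Gars (0.491 to 1.36) and -1.40 for Hars (0.0565 to 1.82), and 0 of the 23 members met the criterion.

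Dars, at 0.78, missed the criterion with an interval from 0.999 to 2.99. With the libraries rescaled to the same sum, Dars (1.25 to 3.75) and Wars (1.16 to 6.74) met it upward beside Rars, and Gars and Hars remained below 1. Of the members named above for their fraction values, Pars2 had the highest density change, at 2.61, and Nars2 followed at 1.86. Vars, with a lower bound of 0 in every library, stood at the other end, at -3.14. The interval of Pars2 included 1, and the other 2 had no numbers.

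**Figure D5:**
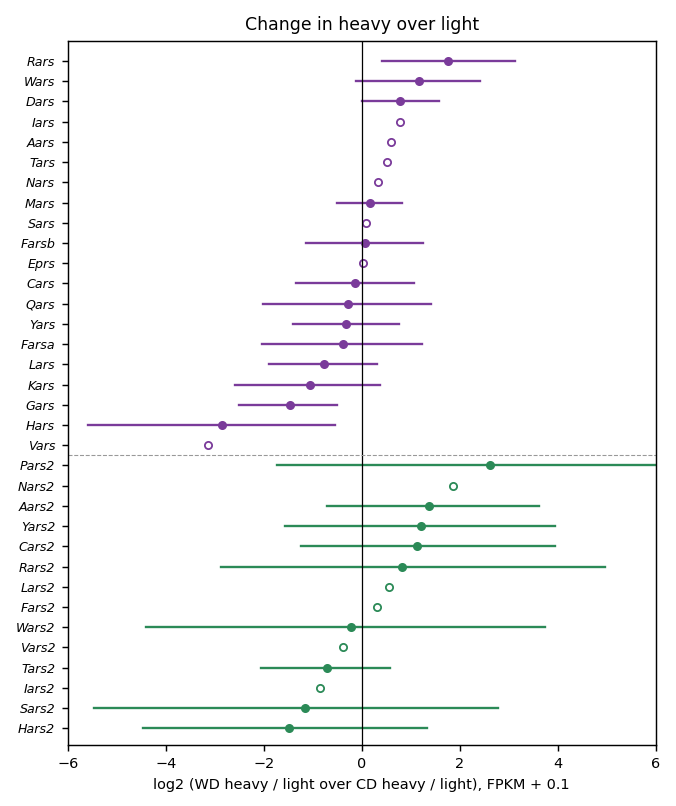
Change of heavy over light between diets for each member, as log2 of the WD over the CD ratio of FPKM + 0.1, drawn as in the plot for total RNA and without Ears2. The interval of Rars lies right of 0 and those of Gars and Hars left of it, that of Dars reaches just below 0, and mitochondrial intervals are wide, that of Pars2 running past the edge of the plot.

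Several members had values that lay close between the diets in most kinds of RNA. Qars, the glutaminyl enzyme of the complex, gave 5.79 FPKM in CD total, 5.69 in WD total, 4.98 in CD light, 5.95 in WD light, 6.95 in CD heavy and 6.79 in WD heavy. Its changes were -0.02, 0.25 and -0.03 on the log2 scale in total, light and heavy. The intervals of these ratios ran from 0.465 to 2.07, 0.558 to 2.78 and 0.417 to 2.29, so a change of moderate size was not excluded. Farsb, the beta subunit of the phenylalanyl enzyme, gave 14.7, 14.0, 11.4, 11.1, 19.7 and 19.9 FPKM, and Cars, the cysteinyl enzyme, 9.89, 8.40, 9.49, 9.35, 12.1 and 10.9 FPKM. Eprs gave 67.9, 82.7, 42.7, 41.1, 128 and 126 FPKM, so that its fractions were level between diets. The alpha subunit, Farsa, gave 6.04, 8.61, 8.04, 9.61, 13.8 and 12.6 FPKM, below Farsb in all 6 libraries.

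The most abundant members showed higher values in the WD heavy than in the CD heavy fraction in some cases and not in others. Aars gave 89.0, 113, 50.5, 46.7, 86.0 and 121 FPKM, and Nars 44.4, 57.3, 25.4, 27.2, 48.5 and 65.5 FPKM, both higher in WD in total RNA and in the heavy fraction. Tars gave 99.3, 98.0, 59.1, 38.8, 112 and 106 FPKM, lower in WD in all 3 kinds of RNA. Of the remaining mitochondrial members, Vars2 gave 4.83, 7.43, 1.58, 2.39, 4.79 and 5.45 FPKM and was higher in WD throughout. Sars2 gave 1.96, 2.05, 1.15, 1.32, 2.46 and 1.20 FPKM from 2 to 5 fragments, and Wars2 3.44, 3.09, 1.44, 1.66, 2.32 and 2.26 FPKM from 2 to 7, so neither could show a change of moderate size.

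Across the 3 kinds of RNA, 3 cytosolic and 2 mitochondrial members were higher in WD throughout, and 3 cytosolic and 0 mitochondrial members were lower throughout. No share of all loci stands beside these counts, so they are not read as a trait of the members. The members with the TGATGNAA letters shown above did not move as a block. The abundance change was -0.23 in Iars, 0.31 in Mars, 0.37 in Nars and -0.02 in Tars. Their density was above 0 in both diets in all 4, from 0.78 to 1.13 in CD and from 1.26 to 1.55 in WD. The same held for 16 of the 20 cytosolic members (80.0%), so it does not set these 4 apart.

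Other genes of tRNA charging were read from a list of 15 accessory factors, of which 14 were found and 11 averaged 1 FPKM or more. In total RNA 3 were higher in WD and 8 lower, with a median of -0.22. Of the 10201 loci compared, 5214 were higher and 4796 lower. The interval lay to 1 side of 1 for 2 of 11 in total RNA, with 7.37% of loci with numbers there. It did so for 1 in the light and 1 in the heavy fraction, with 17.7% and 7.5% of loci. Aimp2, a scaffold of the complex, gave 17.1, 6.82, 8.35, 11.5, 21.8 and 26.3 FPKM and fell by 1.32 in total RNA (interval of the ratio 0.153 to 0.936). Gatc, a subunit of the mitochondrial amidotransferase that makes glutaminyl-tRNA, gave 32.9, 21.4, 32.9, 9.40, 14.1 and 9.19 FPKM. It fell by 0.62 in total RNA (0.429 to 0.973) and by 1.79 in the light fraction (0.172 to 0.469). Mtfmt, which formylates the mitochondrial initiator methionyl-tRNA, fell from 18.2 to 6.65 FPKM in the heavy fraction, by 1.44 (0.117 to 0.985).

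The amino acid response, through ATF4, was read from 20 genes, of which 16 averaged 1 FPKM or more. In total RNA 9 were higher in WD and 7 lower, with a median of 0.15. Of the 13 with fragment numbers, the interval lay above 1 for 2 and below 1 for 1 in total RNA. It lay below 1 for 2 in the light fraction, and above 1 for 3 in the heavy fraction and 1 in density change. The shares of loci with numbers outside 1 were 7.37%, 17.7%, 7.5% and 10.0% in that order. Phgdh, the first enzyme of serine synthesis, gave 2.73, 9.70, 0, 1.10, 6.00 and 17.6 FPKM and rose by 1.79 in total RNA (interval 1.26 to 12.3) and by 1.53 in the heavy fraction (1.20 to 8.16). Slc3a2, a subunit of amino acid transporters, rose from 67.0 to 93.7 FPKM in total RNA, by 0.48 (1.12 to 1.75), and from 66.7 to 107.8 FPKM in the heavy fraction, by 0.69 (1.24 to 2.12). Trib3, a pseudokinase induced by ATF4, fell from 10.6 to 2.64 FPKM in total RNA, by 1.97 (0.0733 to 0.678), and stood at 32.5 and 33.3 FPKM in the heavy fraction. Fgf21, a hormone that the liver secretes in fasting and amino acid shortage, gave 55.5, 27.9, 105, 27.6, 129 and 126 FPKM. It fell by 1.92 in the light fraction (0.144 to 0.468), was level in the heavy fraction, and rose by 1.89 in density (1.74 to 8.0). Asns, which makes asparagine, stood at 0.758 FPKM in CD heavy, on 1 fragment, and 7.41 in WD heavy, on 10, a change of 3.13 whose ratio had an interval from 1.39 to 424. Atf4 itself was at 31.1 FPKM in CD total and 35.5 in WD total, with an interval that included 1, and fell by 0.39 in the light fraction (0.599 to 0.974).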

How the data were processed

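Liver RNA of the 6 pools was depleted of ribosomal RNA and sequenced. Per the submitters' processing notes, reads were handled with bcl2fastq, TopHat, Cufflinks and Cuffnorm against Rnor_6.0. The annotation is not given in the sources used here. The authors deposited FPKM per locus with lower and upper bounds, 1 library per group (n = 1), so no model could be fitted. Scripts ran under Python 3.11.15 with scipy 1.17.1, numpy 2.4.6, pandas 2.3.3 and, for plots, matplotlib 3.10.9.

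Changes were computed on log2(FPKM + 0.1), which understates changes of low genes, for loci that carried a symbol, were estimated in every library and averaged 1 FPKM or more. Fragment numbers were inferred from the steps between FPKM values of a gene (whole within 0.01, steps of at least 0.05 FPKM), with multiples settled by the deposited bounds, for 9914 of 12459 genes (79.6%). The procedure was run on simulated data, but no outcome is given here, so that run does not vouch for the multiples. At 30 fragments or fewer, the deposited bound matched the inferred number in 78.0% of 39459 cases. This match is no independent check, because the bounds also settled the multiples. The promoter of 1 cytosolic member is not reported here. Intervals are Clopper-Pearson for a pair of libraries and conditional odds ratios for 4. They compare libraries, not diets, and cover counting error only. Members with a symbol suffix of 1 in other releases count as the same gene.

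Genes were named by rule: members whose interval excluded 1 and the 3 largest and 3 smallest changes of each comparison. Members and lists were chosen with earlier results of these data known. Alternatives covered the pseudocount, the filter, rescaling, the denominator and members left out.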

Additional observations from a re-analysis of the deposited data

Results flagged for a closer look

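The change between WD and CD differed between the light and heavy fractions for 3 members, by a 95% counting interval of the difference that compares the 4 libraries and not the rats. In Rars the heavy over light ratio was higher in WD by 1.75 on the log2 scale, with a fall in the light fraction (30 fragments in WD heavy and 22 in WD light, against 17 and 20 in CD). In Gars it fell by 1.47, with 89 fragments in WD light and 15 in CD light. In Hars it fell by 2.86, with 3 fragments in WD heavy and 12 in CD heavy. These fragment numbers are not scaled for depth, which relative to CD total RNA was 1.49 in WD light and 0.684 in CD light. In FPKM the light values were 13.3 in CD and 6.71 in WD for Rars, and 8.85 and 24.2 for Gars. With heavy over total RNA, the 3 changes were 0.45, -0.29 and -1.40, with intervals of the ratio from 0.597 to 3.19, 0.491 to 1.36 and 0.0565 to 1.82 that all included 1. Beside these, the WD light library had 503 FPKM of red cell markers against 98.5 in CD light. The globins were higher there, and Alas2 was lower (7.18 against 19.7 FPKM). The part of this difference in the values was not tested.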

How the results depend on the processing

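With 1 library per group no library could be left out, and no paired analysis was possible because the groups compared share fewer than 2 replicate numbers. Of 103 medians recomputed under other settings, 80 kept their sign and moved by at most 0.1, 13 kept it and moved by more, and 10 changed sign. Of 37 counts, 20 were equal and 33 within 1.5-fold. Of 70 values of members whose interval excluded 1, all kept their sign, and 35 were equal under the other setting. The interval uses neither the pseudocount nor the filter, so those settings could not end a call, and 70 is not a count of chances to lose it. The call was lost in 4, namely Kars in the light fraction on rescaling (0.81) and, with heavy over total, the density changes of Rars (0.45), Gars (-0.29) and Hars (-1.40).

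With a mean of at least 10 FPKM the level difference between the gene sets went from 2.19 to 0.71, the mitochondrial median from 0.060 to 0.60 in abundance, from 0.19 to 0.66 in the light fraction, from 0.33 to -0.12 in the heavy fraction and from 0.31 to -0.78 in density change, and the cytosolic medians from 0.090 to -0.042 in the light and from -0.028 to 0.014 in the heavy fraction. The cytosolic minus mitochondrial density went from 0.22 to -0.69 in CD and from 0.25 to 0.42 in WD. Members past the ratio limits fell from 9 to 1 in abundance, 17 to 9 in the light fraction, 15 to 4 in the heavy fraction and 21 to 9 in density change, with fewer members left by construction. Of the mitochondrial members only Iars2 and Tars2 were left at this filter, so its mitochondrial medians do not describe the set.

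Rescaling the libraries to the same sum moved the median of all loci by 0.096 in abundance, -0.31 in the light fraction and 0.30 in density change. The light medians became -0.26 (cytosolic) and -0.14 (mitochondrial), against -0.29 over all loci. The density change medians became 0.37 and 0.63, against 0.28 over all loci. Dars passed in abundance (interval 1.01 to 1.90). A pseudocount of 1 FPKM gave a level difference of 1.93 and a CD density difference of 0.33. Without a filter the mitochondrial density change was 0.16 and the WD density difference 0.39. Heavy over total gave 0.12 and -0.11 for these, and took the cytosolic density change from 0.044 to -0.038. Leaving out Gars and Kars gave a WD density difference of 0.39, and members alone in their interval gave 0.0062 and a cytosolic light median of -0.042. The causes were not tested. Low levels limit the mitochondrial members most, with a median of 3.5 fragments in CD light.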
